A study of Mus musculus with 6 samples.

Results

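The 39 genes described here are interferon-stimulated genes, chosen by symbol from a list of genes that type I and type II interferons induce. All 39 were among the 15443 genes measured, and all 39 passed the filter on low values (a mean of at least 5 normalized counts). The source was bone marrow of C57BL/6J mice, an inbred strain, of WT genotype and of an age that the labels do not give. All cells were kept for 3 days with FLT3LG at 50 ng/ml, a growth factor under which progenitors in marrow become dendritic cells (DCs). The 3 control libraries (replicates 1, 2 and 4) had FLT3LG alone, and the 3 midkine libraries (replicates 3, 4 and 5) also had recombinant human midkine, a heparin-binding growth factor, at 10 ng/ml. Whether the replicates of a group were separate mice or cultures is not in the labels. The p-values therefore reflect the spread between these samples alone, and that spread may be technical. The comparison asked how midkine alters cells grown with FLT3LG, here for the interferon response.

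Type I interferons bind the IFNAR1 and IFNAR2 receptor chains, whose kinases JAK1 and TYK2 activate STAT2. STAT2 and IRF9 are subunits of the complex ISGF3, which binds interferon-stimulated response elements (ISREs) in promoters. Interferon gamma acts through gamma-activated sites (GAS). The induced genes encode sensors of foreign nucleic acid, enzymes and GTPases that block viruses and other intracellular microbes, chemokines, and the regulators that amplify or end the response. Many of them are also transcribed at a basal level in blood cells that have met no microbe, and DCs, in particular plasmacytoid DCs, are strong makers of interferon.

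The ISRE is what many of these genes share in their sequence, so the promoters of 4 members are shown: those with an ISRE-like motif and the smallest p for a lower (Stat2, Cxcl10) or a higher (Oas1a, Isg15) value with midkine. The unadjusted limma p was 0.00186 for Stat2, 0.0355 for Cxcl10, 0.087 for Oas1a and 0.824 for Isg15. Isg15 was thus close to level, with a log2 fold change of 0.05. They are RefSeq sequences on GRCm38.p6, from 250 bases before to 50 bases after the start site, written 5′ to 3′ on the gene's own strand. Capitals mark the motif, which was searched on both strands as GAAA, then any 2 bases, then GAAA again.
Stat2 (chr10:128270248-128270547, plus strand): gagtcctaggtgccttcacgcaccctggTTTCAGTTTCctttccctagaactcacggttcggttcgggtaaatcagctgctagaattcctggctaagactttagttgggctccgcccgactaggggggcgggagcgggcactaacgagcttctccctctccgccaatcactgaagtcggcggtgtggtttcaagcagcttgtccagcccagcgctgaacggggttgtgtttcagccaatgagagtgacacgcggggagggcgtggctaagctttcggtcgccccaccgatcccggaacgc
Cxcl10 (chr5:92348840-92349139, minus strand): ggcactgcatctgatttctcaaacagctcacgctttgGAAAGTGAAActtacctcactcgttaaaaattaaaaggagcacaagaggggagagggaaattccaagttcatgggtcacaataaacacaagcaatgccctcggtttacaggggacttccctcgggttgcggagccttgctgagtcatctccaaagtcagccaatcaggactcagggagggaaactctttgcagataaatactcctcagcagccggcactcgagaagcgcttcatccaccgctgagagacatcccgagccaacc
Oas1a (chr5:120907476-120907775, minus strand): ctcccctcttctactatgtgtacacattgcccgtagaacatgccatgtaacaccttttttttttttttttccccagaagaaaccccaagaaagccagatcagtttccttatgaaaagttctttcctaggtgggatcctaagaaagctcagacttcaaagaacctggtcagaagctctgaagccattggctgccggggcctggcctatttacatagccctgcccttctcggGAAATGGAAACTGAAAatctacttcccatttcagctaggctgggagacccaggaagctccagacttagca
Isg15 (chr4:156200769-156201068, minus strand): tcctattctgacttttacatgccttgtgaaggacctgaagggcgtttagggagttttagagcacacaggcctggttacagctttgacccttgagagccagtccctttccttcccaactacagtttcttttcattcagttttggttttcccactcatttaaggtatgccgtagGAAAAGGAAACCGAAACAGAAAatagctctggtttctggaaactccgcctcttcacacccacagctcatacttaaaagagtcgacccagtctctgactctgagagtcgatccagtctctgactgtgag
The motif began at −222 relative to the start site in Stat2, where it lay on the opposite strand, and at −213 in Cxcl10. Oas1a held overlapping matches at −20 and −14, and Isg15 held 3 at −78, −72 and −66.

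Of the 39 members, 32 had an entry in the promoter table, with 39 promoters in all. Parp14, Zbp1, Usp18, Ifi27l2a, Dhx58, Mx1 and Parp9 had none. The ISRE-like motif was in 18 of the 39 promoters (46.2%), belonging to 17 genes, and in 3.44% of all 32851 promoters in the table. The GAS motif TTCNNNGAA, searched on both strands, was in 9 of the 39 (23.1%) and in 8.3% of all. Genes with the motif differed among themselves: Stat2 and Cxcl10 were lower in all 3 midkine libraries than in any control, while Isg15, with the most matches of the 4, overlapped. The 17 genes with the ISRE-like motif had a median log2 fold change of −0.46, and 4 of them lay below all controls. The 15 matched genes without it had a median of −0.08, and 2 lay below, where 15.3% of all genes tested did. Without midkine 5 the medians were closer, at −0.18 with the motif (the value of Ifit3) and −0.07 without it (the value of Cmpk2). The search took exact letters only, so promoters counted as without the motif may hold near matches. These medians are a description and were not tested.

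**Figure D1:**
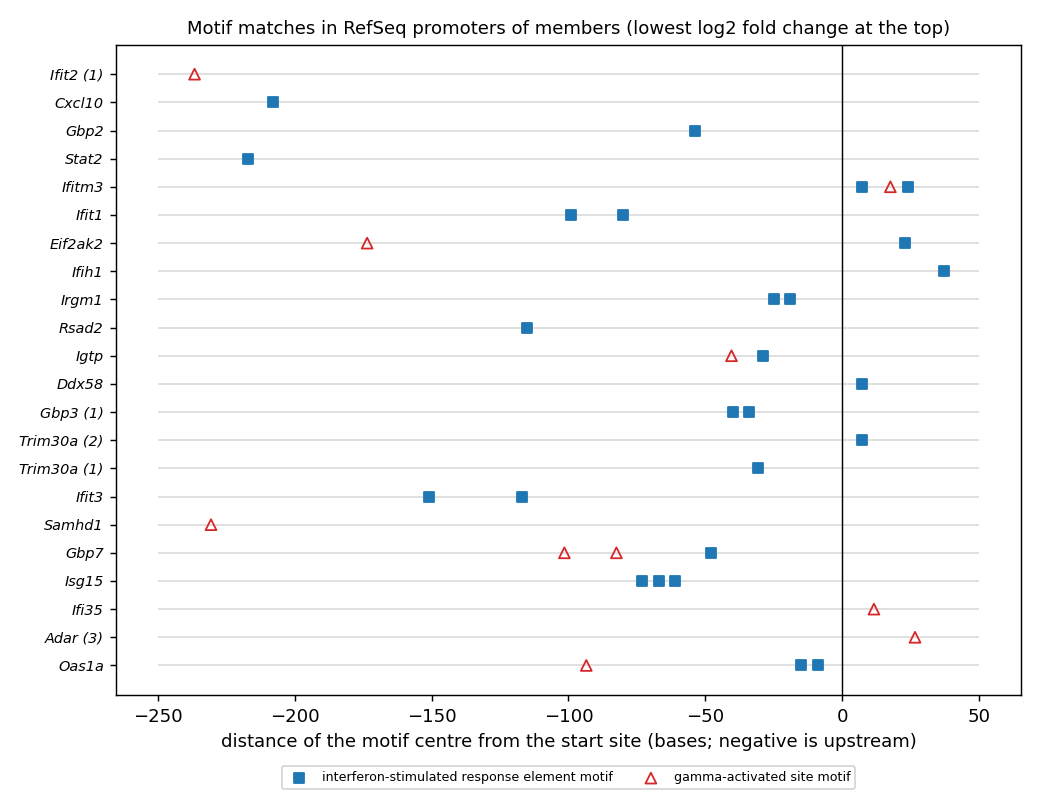
Positions of ISRE-like motifs (squares) and GAS motifs (triangles) in the RefSeq promoters of the members that hold a match, as the distance of the motif's centre from the start site in bases, with genes ordered by log2 fold change. A number in brackets after a gene marks which of its promoters is drawn. The matches of Stat2 and Cxcl10 lie at the far upstream end, and those of Oas1a and Isg15 nearer the start.

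Before the members are described, 1 library needs to be named. Libraries held 5985684 to 7233960 reads, and midkine 5 stood apart from the other 5 on the first principal component of all genes (score 86.0, against −28.2 to 1.94). The share of reads from mitochondrial ribosomal RNA was 0.377% in midkine 5 (95% interval by Wilson's method 0.372 to 0.381%), 4.12% in midkine 3, 4.69% in midkine 4 and between 4.91 and 6.16% in the 3 control libraries. Log2 fold changes of the members are therefore also given without midkine 5, beside the result or after all of them. Cell type markers differed between the groups too. The 8 conventional DC markers summed to 1708 to 1817 normalized counts in the controls and 1001 to 1286 with midkine, with Zbtb46, a transcription factor of that lineage, at 139 to 171 and 65.4 to 86.2. Of these markers 6 had negative and 2 positive log2 fold changes. The plasmacytoid DC markers summed to 6062 to 7115 and 5226 to 5535, and Siglech, a surface lectin of these cells, was at 338 to 455 and 202 to 293. Of the 9 tested, 7 had negative and 2 positive log2 fold changes. The neutrophil markers summed to 123245 to 137023 and 176300 to 188295, and those of monocytes and macrophages to 17274 to 18354 and 19728 to 22899. The 10 monocyte and macrophage markers went both ways, with 7 positive and 3 negative log2 fold changes. At an unadjusted p under 0.05 in limma, 4 were higher (10.4% of all genes) and 2 lower (9.3%). In midkine 5, 5 lay above all controls (41.8% of all genes) and 5 below (41.1%). Markers of basophils, mast cells and eosinophils summed to 964 to 1211 and 1749 to 2707, with a median log2 fold change of 1.24. At an unadjusted p under 0.05 in limma, 7 of the 7 tested were higher (10.4% of all genes). All 7 lay above all controls in midkine 3 and in midkine 4, but only 4 did in midkine 5 (41.8% of all genes). Their median there was 0.491 relative to the control mean. B cell markers summed to 1340 to 1877 and 1404 to 2962, so that midkine 5 lay inside the control range, and erythroid markers to 70.8 to 107 and 142 to 205. T and NK cell markers summed to 40.8 to 78.3 over all 6 libraries, with Trac at 0 in midkine 5 and Klrb1c at 0 in midkine 4. The part of midkine 5 or of cell composition in the results on members was not tested. In bulk samples such as these, fewer cells of a type and less RNA per cell cannot be told apart.

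As a list, the members tended to lower values in midkine 3 and midkine 5 but not in midkine 4, and the size of the difference depended on midkine 5. Their median log2 fold change (midkine minus control, on the log2(normalized count + 1) scale) was −0.32, and −0.004 over all 13543 genes tested, with 29 members negative and 10 positive. Without midkine 5 the median was −0.09, and −0.002 over all genes. Relative to the control mean the members' median was −0.24 in midkine 3, 0.059 in midkine 4 and −0.58 in midkine 5. Midkine 4 was thus near the controls, midkine 3 somewhat below them and midkine 5 the lowest.

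No member passed an adjusted p of 0.05 with limma over the 6 libraries, and 0% of all genes did. At an unadjusted p under 0.05, 6 members were lower (15.4%; 9.3% of all genes) and 0 higher (10.4% of all genes). On whole reads, edgeR called 0 members and 0.0738% of all genes. DESeq2 called Stat2 and Parp14 lower (1.86% of genes with an adjusted p were called lower) and no member higher (3.72%). Without midkine 5, limma called 5 members lower (8.52% of all genes) and 2 higher (9.92%), and edgeR called the same 7 members (18.5% of all genes in either direction). Those were Ifit2, Cxcl10, Stat2, Parp9 and Parp14, which fell, and Ifi27l2a and Trim25, which rose. A share of 17.9% of members called is thus near the share of all genes called.

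The groups did not overlap for 8 lower members (15.3% of all genes) and for 3 higher ones (15.5%). The 8 were Parp14, Stat2, Ifit2, Cxcl10, Ifitm3, Parp9, Rsad2 and Irf9, and the 3 were Trim25, Adar and Zbp1. Without midkine 5, 9 members lay below (23.8% of all genes) and 4 above (23.8%). By library, 25 members in midkine 3 lay below all 3 controls (32.4% of all genes) and 4 above (32.1%). In midkine 4 there were 10 below (35.4%) and 14 above (35.8%). In midkine 5 there were 27 below (41.1%) and 9 above (41.8%). Midkine 5 held the lowest of the 6 values for 22 members (33.7% of all genes), and 10 members were at least 1 log2 unit below the control mean there (13.4%). Among the controls, replicate 1 held the highest value for 18 members (31% of all genes). Replicate 4 held it for 16 members (4506 of 13543 genes) and replicate 2 for 5 (4844 of 13543 genes). The members' median log2 difference from the other controls was 0.078 in control 1, −0.17 in control 2 and 0.061 in control 4.

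**Figure D2:**
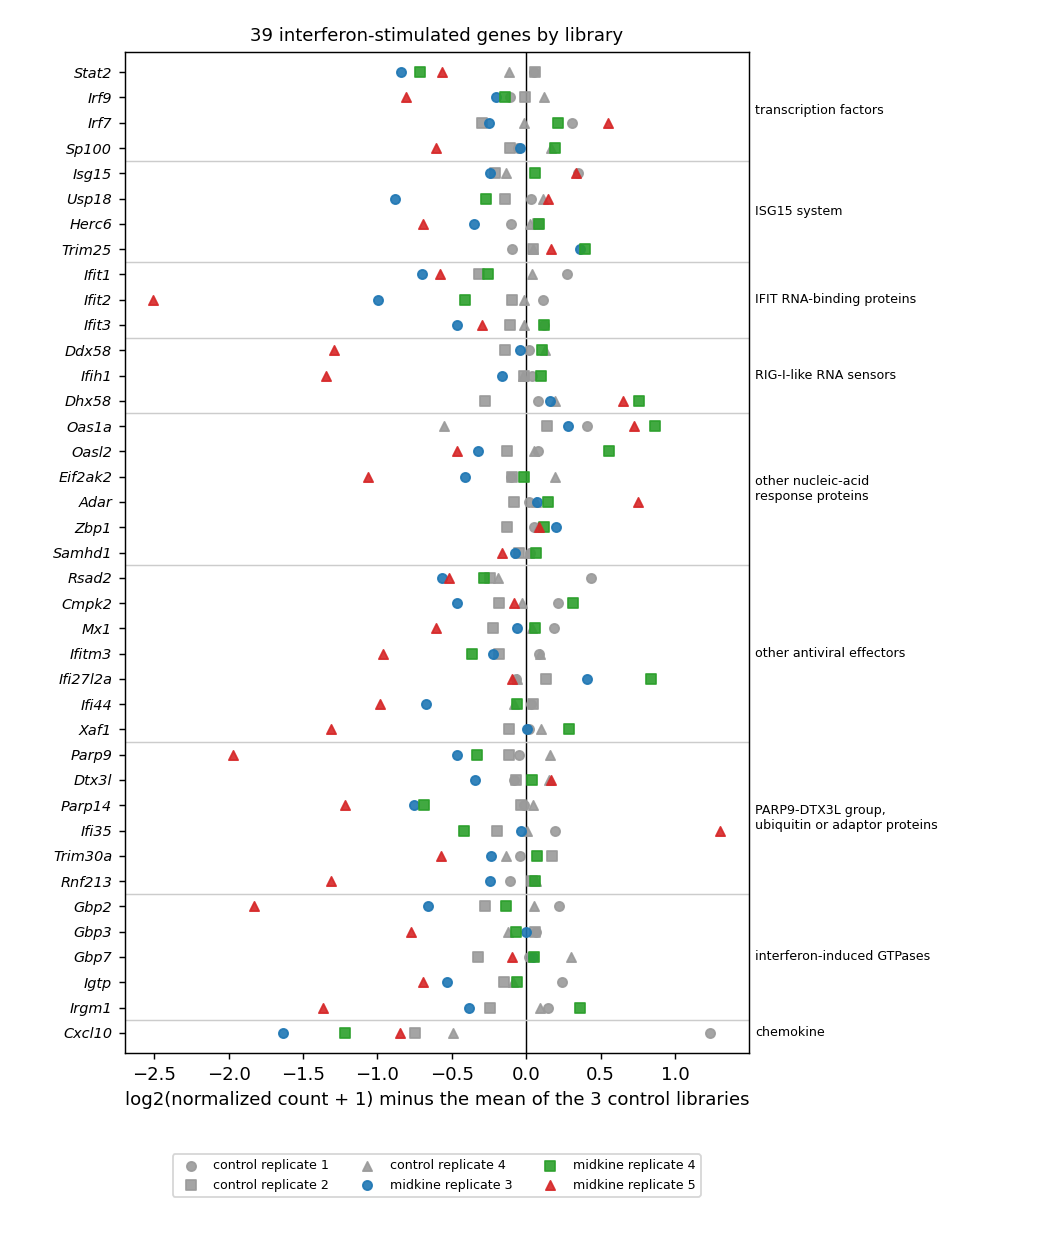
Each of the 39 members in each library, as log2(normalized count + 1) minus the mean of the 3 controls, with members grouped by role; each point is 1 library. Midkine 5 lies farthest to the left for most members, down to −2.51 for Ifit2, and midkine 4 scatters around the controls.

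Of the 4 transcription factors of the response, Stat2 and Irf9 were lower in every midkine library. Stat2, the subunit of ISGF3 that activates transcription (chromosome 10, 128270559 to 128292849, plus strand), had 289, 290.4 and 256 normalized counts in control 1, 2 and 4 and 155, 169 and 188 in midkine 3, 4 and 5. Every midkine library was well below every control, and midkine 5 was the highest of its group. Its log2 fold change was −0.71 ± 0.157 (SE), with a limma adjusted p of 0.0893. It fell in DESeq2 (adjusted p = 0.017) and without midkine 5 in limma (−0.78 ± 0.127, adjusted p = 0.000442). Irf9, the DNA-binding subunit of ISGF3, had 901, 965 and 1055 in control and 845, 880.4 and 556 in midkine libraries. The groups did not overlap, but midkine 3 and 4 lay just under the controls and the difference came largely from midkine 5 (−0.38 ± 0.201, limma adjusted p = 0.324; −0.17 without midkine 5, adjusted p = 0.268). An exon of Irf9 overlaps Rnf31 on the same strand, so reads there could belong to either.

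Sp100, a nuclear body protein and the most abundant of the group, had 1719, 1652 and 1998 normalized counts in control and 1732, 2044 and 1174 in midkine libraries. Its groups overlapped, with midkine 4 the highest and midkine 5 the lowest of all 6, and the log2 fold change of −0.15 ± 0.216 turned to 0.08 without midkine 5. Irf7, which drives transcription of the interferon alpha genes, also overlapped, at 231 to 352 in control and 239 to 416 in midkine libraries. An exon of Irf7 overlaps Phrf1 on the opposite strand.

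The RIG-I-like receptors, which detect viral RNA in the cytosol, overlapped between the groups for all 3 members. Ddx58, which encodes RIG-I and was the most abundant, had 339, 303 and 365 normalized counts in control and 325, 360.0 and 136 in midkine libraries. Midkine 3 and 4 lay inside the control range and midkine 5 far below it. Its log2 fold change was −0.41 ± 0.342 (limma adjusted p = 0.514) and 0.03 without midkine 5 (adjusted p = 0.895). Ifih1, which encodes MDA5, was likewise far below the controls in midkine 5 alone, at 272 to 284 in control and 247, 296 and 108 with midkine; midkine 3 was slightly below and midkine 4 slightly above the control range. Dhx58, which encodes the regulator LGP2, went the other way: 58.3 to 80.9 in control, and 79.3, 120.3 and 112 in midkine libraries (0.52 ± 0.229, limma adjusted p = 0.255). Its exons overlap an antisense gene, Dhx58os, and whether the counting kept the reads of the 2 genes apart is not given.

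ISG15 is a ubiquitin-like protein joined to other proteins during the response. In this system Trim25, a ubiquitin ligase that acts on RIG-I, was the most abundant member (chromosome 11, 88999376 to 89020293, plus strand) and was higher in every midkine library. Trim25 had 656, 725 and 726 normalized counts in control and 904, 924 and 787 in midkine libraries, with no overlap. The log2 fold change was 0.31 ± 0.142 (limma adjusted p = 0.273), and it rose when midkine 5, the lowest of its group, was left out (0.38 ± 0.101, adjusted p = 0.0139). Isg15 itself had 568, 386 and 405 in control and 377, 464 and 562 in midkine libraries, a log2 fold change of 0.05 ± 0.214 with full overlap. Usp18, the protease that removes ISG15 and dampens receptor signalling, ran from 71.6 to 85.8 in control, and had 42.5, 65.4 and 88.0 with midkine. Herc6, the ligase that attaches ISG15 in mice, had 114 to 129 in control and 75.3 to 129.8 with midkine, and shares exon sequence with Gm45193 on the same strand.

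Among other proteins that bind or process nucleic acids, 2 were higher in all midkine libraries, by little except for Adar in midkine 5. Adar, the enzyme that edits adenosine to inosine in duplex RNA, had 276, 257 and 285 normalized counts in control and 286, 302 and 459 in midkine libraries. Only midkine 5 was far above the controls (0.32 ± 0.205, limma adjusted p = 0.399; 0.11 without midkine 5), and Adar shares exon sequence with Chrnb2 on the opposite strand. Zbp1, a sensor of left-handed nucleic acid that can trigger cell death, was low, with 52.3, 46.0 and 53.3 in control and 58.0, 54.9 and 53.6 in midkine libraries (0.13 ± 0.189, limma adjusted p = 0.705). Its lowest midkine and highest control values were nearly the same.

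Samhd1, which hydrolyses nucleotides and was the most abundant of these proteins, was level. It had 2357, 2240 and 2338 normalized counts in control and 2192, 2419 and 2068 in midkine libraries, a log2 fold change of −0.06 ± 0.136. Oas1a, an oligoadenylate synthetase of the RNase L pathway, was the member with the fewest reads, 15 to 41 per library. It had 29.7, 24.5 and 14.8 normalized counts in control and 27.1, 41.2 and 37.2 with midkine, an overlapping 0.62 ± 0.32 (limma adjusted p = 0.318). It has a close copy, Oas1g, and how reads matching both were counted is not stated. Oasl2, a related protein, overlapped at 215 to 249 and 171 to 347, and Eif2ak2, the RNA-activated kinase PKR, at 234 to 287 and 119.8 to 248.

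The IFIT proteins bind viral RNA and lie in a cluster on chromosome 19, where Ifit2 and Ifit3 are direct neighbours 7112 bp apart. All 3 had negative log2 fold changes, and Ifit2 had the most negative one of the 39 members. Ifit2 (34550694 to 34576419, plus strand) had 378, 328 and 346 normalized counts in control and 175, 263 and 60.8 in midkine libraries. No midkine value reached the controls, but the midkine libraries spread widely. The log2 fold change was −1.31 ± 0.458 (limma adjusted p = 0.188). Without midkine 5 it was −0.71 ± 0.149, and Ifit2 then passed (adjusted p = 0.00305). Its neighbour Ifit3 overlapped, with 191 to 225 in control and 149, 224 and 168 with midkine (−0.21 ± 0.193), and shares much of its sequence with Ifit3b. Ifit1 had 79.8 to 121 in control and 60.9, 83.4 and 66.3 with midkine (−0.51 ± 0.224, limma adjusted p = 0.255).

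Of 7 other antiviral effectors, Ifitm3 and Rsad2 were lower in every midkine library. Ifitm3, a membrane protein that hinders the entry of viruses, was the most abundant of all members (chromosome 7, 141009586 to 141010770, minus strand). It had 4852, 4024 and 4858 normalized counts in control and 3901, 3546 and 2345 in midkine libraries. Midkine 3 was only slightly below control 2, and midkine 5 well below all (−0.52 ± 0.213, limma adjusted p = 0.236; −0.29 ± 0.108 without midkine 5, adjusted p = 0.0677). Ifitm3 and Ifitm2 are alike in sequence, so some reads could belong to either. Rsad2, which encodes the radical enzyme viperin, had 1226, 765 and 795 in control and 613, 743 and 632 in midkine libraries. Here control 1 stood high: the log2 fold change of −0.46 ± 0.208 (limma adjusted p = 0.27) became −0.24 without control 1 (adjusted p = 0.619). Cmpk2, a mitochondrial nucleotide kinase, starts 12752 bp from Rsad2 on the opposite strand and overlapped fully, at 141 to 186 in control and 116 to 199.5 with midkine (−0.08 ± 0.229).

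Ifi27l2a was the other member that rose when midkine 5 was left out. This small mitochondrial protein gene had 435, 499 and 436 normalized counts in control and 606, 815 and 427 in midkine libraries. Midkine 3 and 4 were above all controls and midkine 5 below them all. The log2 fold change was 0.38 ± 0.233 with 6 libraries (limma adjusted p = 0.382) and 0.62 ± 0.126 without midkine 5 (adjusted p = 0.00219). The remaining effectors overlapped: Ifi44 had 72 to 78.7 and 38.1 to 72.8, and Xaf1, a protein that opposes an inhibitor of apoptosis, 119.7 to 139 and 51.7 to 158. Mx1, a dynamin-like GTPase whose gene is defective in most laboratory mouse strains, had 82.8 to 111 in control and 63.5 to 101 with midkine.

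Parp14 had the smallest p of all members. It encodes an ADP-ribosyltransferase known as a partner of STAT6 and lies on chromosome 16 (35832874 to 35871544, minus strand) beside Dtx3l and Parp9. An exon of Parp14 overlaps Gm49730 on the same strand, so reads there could belong to either. Parp14 had 885, 871 and 922 normalized counts in control and 528, 553 and 384 in midkine libraries. The controls lay within 51 counts of each other and every midkine library was far below them. The log2 fold change was −0.89 ± 0.174 (limma adjusted p = 0.0788). Parp14 fell in DESeq2 (adjusted p = 0.00279) and without midkine 5 in limma (−0.72 ± 0.1, adjusted p = 0.000114).

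Parp9 and Dtx3l encode partners in a complex that marks histones and antiviral targets, and the genes run in opposite directions from start sites 681 bp apart. Their values differed all the same. Parp9 had 406, 387 and 469 normalized counts in control and 304, 333 and 106 in midkine libraries, with no overlap (−0.92 ± 0.395, limma adjusted p = 0.246). Without midkine 5 it was −0.40 ± 0.119 and passed (adjusted p = 0.026). Dtx3l had 631, 634 and 739.7 in control and 525, 684 and 749 in midkine libraries, so that midkine 3 was the lowest and midkine 5 the highest of the 6 (−0.05 ± 0.176). The genes overlap by 681 bp on opposite strands, at the start of both, while the kit reads near the 3′ end. The strand setting of the counting is not given in the sources used here. Whether reads in that stretch were kept apart is therefore not known. The difference between Parp9 and Dtx3l was not tested.

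The other ubiquitin ligases and adaptors of this group overlapped. Trim30a, a TRIM protein that restrains inflammatory signalling and the most abundant of the group, had 1370, 1597 and 1289 normalized counts in control and 1198, 1487 and 952 in midkine libraries (−0.24 ± 0.192, limma adjusted p = 0.49; −0.08 without midkine 5). Reads of Trim30a and its copy Trim30d may have been shared between them. Rnf213, a very large ubiquitin ligase, had 525 to 594 in control and 479, 590.1 and 228 with midkine. Ifi35, a partner of the protein NMI, was the one member at least 1 log2 unit above the control mean in midkine 5: 200.005, 152 and 176 in control and 171, 131 and 434 with midkine. Its log2 fold change of 0.29 ± 0.398 turned to −0.22 without midkine 5.

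Cxcl10, the chemokine that draws T and NK cells through the receptor CXCR3, had the second most negative log2 fold change of the members (chromosome 5, 92346638 to 92348889, minus strand). Cxcl10 had 253, 63.4 and 75.9 normalized counts in control and 33.8, 45.4 and 59.0 in midkine libraries. All midkine values were below the controls, but control 1 was 3.996 times control 2. The log2 fold change was −1.23 ± 0.491 (limma adjusted p = 0.226). It was −1.43 ± 0.378 without midkine 5 (adjusted p = 0.0136) and −0.62 without control 1 (adjusted p = 0.477). Cxcl9, a chemokine for the same receptor, was not a member but shared the high control 1, with 105, 9.20 and 16.8 in control and 3.87, 6.33 and 3.63 with midkine. An exon of Cxcl10 overlaps Art3 on the opposite strand.

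**Figure D3:**
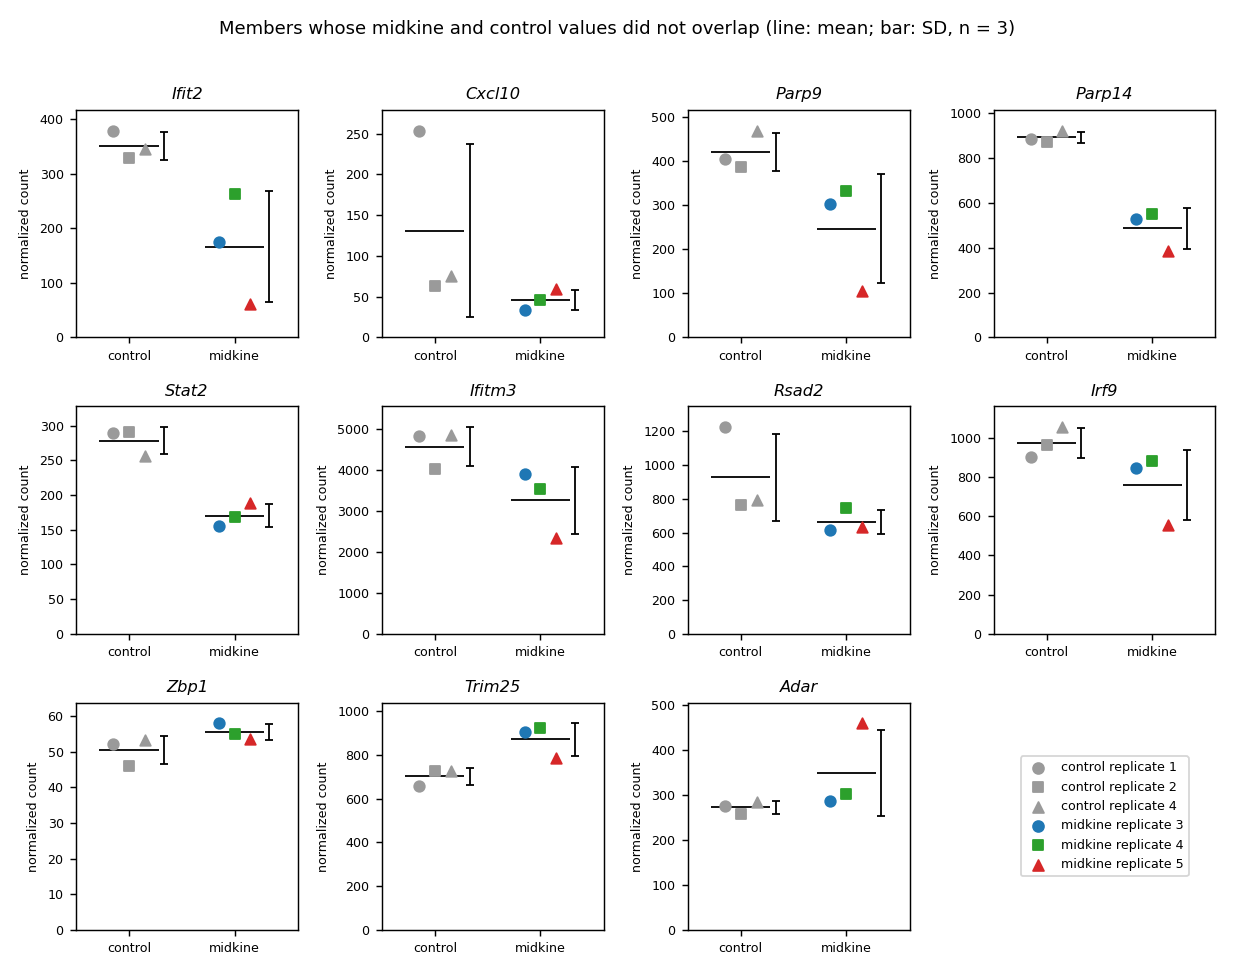
Normalized counts of the 11 members whose midkine and control values did not overlap; each point is 1 library, the line is the group mean and the bar the SD of 3 libraries. Parp14 and Stat2 show tight controls and a clear gap, Cxcl10 and Rsad2 show control 1 above the other controls, and Ifit2, Parp9 and Ifitm3 show midkine 5 below the other midkine libraries.

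The interferon-induced GTPases attack the vacuoles in which intracellular microbes live, and none of the 5 separated the groups. Gbp7, the most abundant, had 265, 209 and 322 normalized counts in control and 269.7, 270.2 and 244 in midkine libraries, and its means were nearly equal (265 ± 56.4 and 261 ± 14.9, SD, n = 3). It shares exon sequence with Gm43802 on the same strand. Gbp2 and Gbp3 lie in the same cluster on chromosome 3. Gbp2 had 127, 90.0 and 113 in control and 68.6, 99.2 and 29.95 with midkine (−0.88 ± 0.399, limma adjusted p = 0.27; −0.40 without midkine 5), and Gbp3 72 to 82.1 and 45.4 to 78.3. Reads of these related genes may be split between them. Igtp had 181 to 237 in control and 123 to 192 with midkine, and shares exon sequence with Irgm2. Irgm1 had 72.6 to 95.4 in control and 65.7, 111 and 32.7 with midkine, so that midkine 4 was the highest and midkine 5 the lowest of its 6 libraries.

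Leaving out midkine 5 changed some members little and others by much. Stat2 went from −0.71 to −0.78, Parp14 from −0.89 to −0.72 and Cxcl10 from −1.23 to −1.43, while Ifit2 went from −1.31 to −0.71 and Parp9 from −0.92 to −0.40. Values near 0 were left for Ddx58 (0.03), Ifih1 (−0.03), Irgm1 (−0.01), Rnf213 (−0.09), Gbp3 (−0.03) and Mx1 (−0.001), whose values with 6 libraries were negative. Usp18 went from −0.33 to −0.58, where it missed the threshold (limma adjusted p = 0.0601). Of the members not yet given in this way, the transcription factor Irf7 was at −0.02, and in the ISG15 system Isg15 was at −0.09 and Herc6 at −0.13. Among sensors and nucleic-acid proteins, Dhx58 was at 0.46, Oas1a at 0.57, Zbp1 at 0.16, Oasl2 at 0.12, Samhd1 at −0.005 and Eif2ak2 at −0.21. Among effectors, Ifit1 was at −0.48, Rsad2 at −0.43, Ifi44 at −0.37, Ifit3 at −0.18, Cmpk2 at −0.07 and Xaf1 at 0.15. Dtx3l was at −0.15, and of the GTPases Igtp was at −0.30 and Gbp7 at 0.05. None of the members in these last 4 sentences passed the limma threshold without midkine 5.

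**Figure D4:**
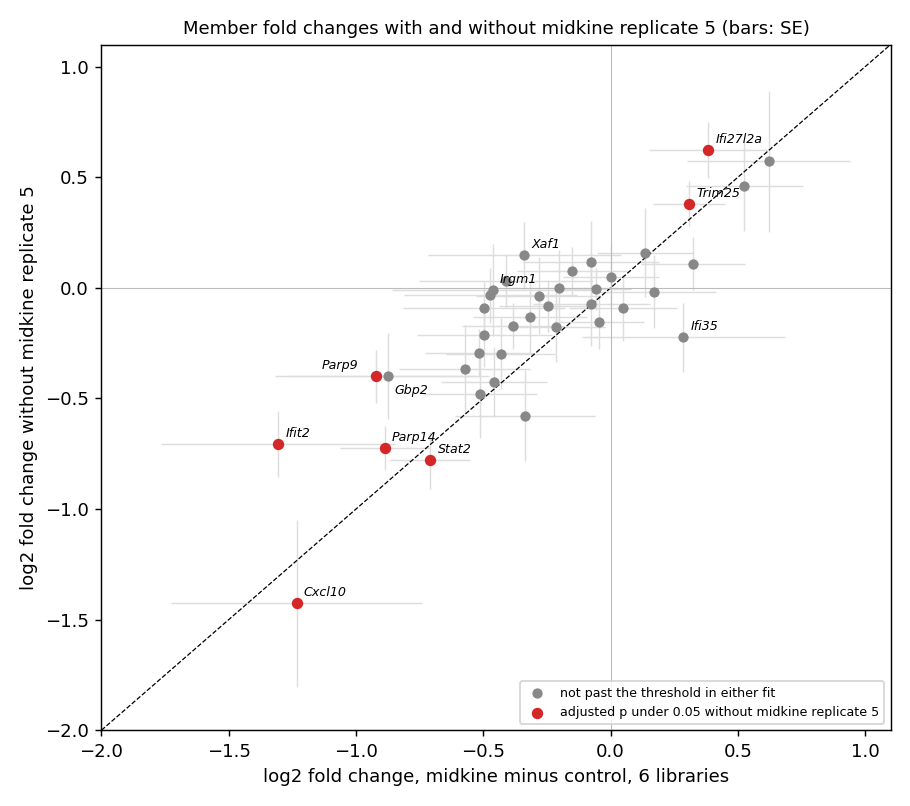
Log2 fold change of each member without midkine 5 (vertical) against that with all 6 libraries (horizontal), with bars for the SE; red points are the 7 members with an adjusted p under 0.05 without midkine 5. Stat2, Parp14, Cxcl10 and Ifit2 remain at −0.71 or below on the vertical axis, and Ddx58, Ifih1 and Irgm1 move to near 0.

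Upstream of the members, the interferon receptors differed in opposite directions. Of 13 listed ligands and receptors 6 were measured, all of them receptor chains, with a median log2 fold change of 0.31. Ifnb1, Ifna1, Ifna2, Ifna4, Ifng, Ifnl2 and Ifnl3 were not among the 15443 genes measured, so they could not be analysed here. With 6 libraries limma called 0 of the 6, with 3 higher and 1 lower at an unadjusted p under 0.05 (10.4% and 9.3% of all genes). Il10rb, the chain shared by the receptors for interferon lambda and interleukin 10, had 417, 402 and 382 normalized counts in control and 623, 763 and 968 in midkine libraries. Every midkine library was above the controls (0.95 ± 0.184, limma adjusted p = 0.0788). Il10rb rose in DESeq2 (adjusted p = 0.00185) and without midkine 5 in limma (0.78, adjusted p = 0.000177). Ifnar1, a chain of the type I receptor, had 434, 420.3 and 445 in control and 318, 338 and 215 in midkine libraries (−0.60 ± 0.196, limma adjusted p = 0.17), and fell without midkine 5 (−0.40, adjusted p = 0.0164). Ifnlr1, the other lambda chain, was low, at 14.3 to 16.4 in control and 18.4 to 32.7 with midkine (0.78 ± 0.305, limma adjusted p = 0.221; 0.64 without midkine 5).

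In the signalling list, 18 of 18 genes were measured, with a median log2 fold change of −0.19. With 6 libraries limma called 0 of them. At an unadjusted p under 0.05 in limma, 0 were higher (10.4% of all genes) and 2 lower (9.3%). The 4 with no overlap were all lower (15.3% of all genes). Irf8, a transcription factor needed for DC and monocyte development, had 4974, 5459 and 4916 normalized counts in control and 3447, 3783 and 4314 in midkine libraries (−0.42 ± 0.149, limma adjusted p = 0.195). It was the one gene of the list called without midkine 5, where it fell (−0.50, limma adjusted p = 0.00208). Of all genes, limma called 8.52% lower in that fit. Ptpn11, a phosphatase, had 1095 to 1215 in control and 727 to 1038 with midkine (−0.40 ± 0.168, limma adjusted p = 0.243; −0.26 without midkine 5).

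Among sensors and adaptors that lead to interferon production, 17 of 20 listed symbols were measured and 16 tested. Their median log2 fold change was 0.028, and limma called no gene with 6 libraries. At an unadjusted p under 0.05 in limma, 3 of the 16 were higher (10.4% of all genes) and 1 lower (9.3%). Tlr3, the endosomal receptor for duplex RNA, had 122, 101 and 112 normalized counts in control and 68.6, 78.1 and 40.8 in midkine libraries (−0.88 ± 0.261, limma adjusted p = 0.144). The receptor for single-stranded RNA, Tlr7, went the opposite way, with 109, 112 and 98.6 and then 142, 211 and 143 (0.60 ± 0.204, adjusted p = 0.18), as did Unc93b1, the protein that carries these receptors to endosomes, with 873 to 886 and 1034 to 2360. Without midkine 5, limma called 4 of these 16 genes higher (9.92% of all genes), Tlr7 (0.70) and Unc93b1 (0.50) among them, and 2 lower (8.52%), Tlr3 (−0.60, adjusted p = 0.0173) and Tmem173 (−0.78). Tmem173, which encodes the adaptor STING, had 1041, 1091 and 1055 in control and 631, 604 and 1345 in midkine libraries, so that midkine 5 was on the other side of the controls from midkine 3 and 4. Tmem173 was named after its values were seen.

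**Figure D5:**
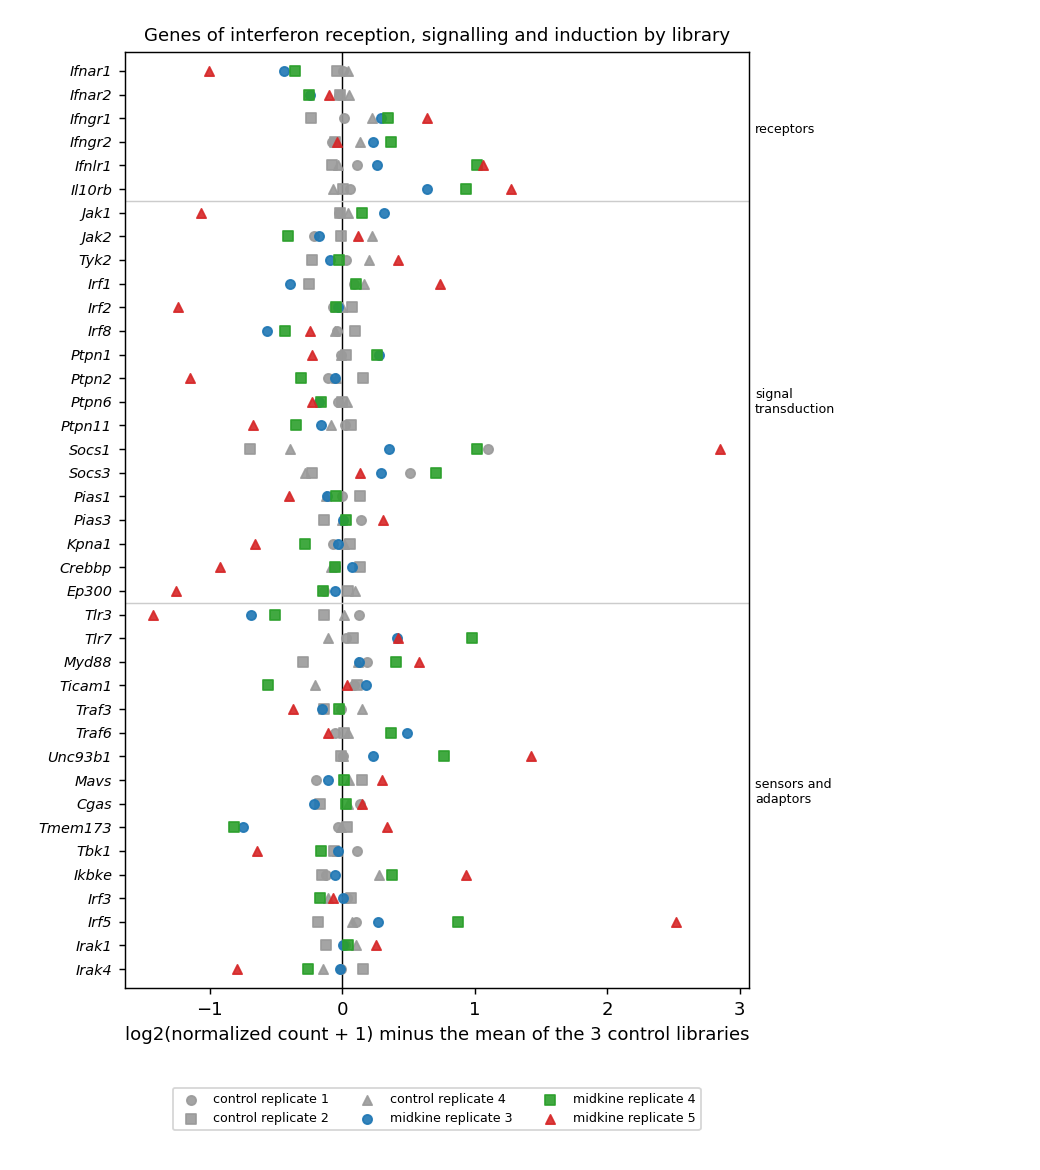
Receptors, signalling genes, and sensors and adaptors of the interferon pathway in each library, as log2(normalized count + 1) minus the mean of the 3 controls, grouped by list; each point is 1 library. Il10rb lies to the right and Ifnar1 to the left of the controls in all 3 midkine libraries, and midkine 5 is the farthest point for many genes.

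A wider list of 64 interferon-induced genes outside the 39 also went both ways. Of these, 61 were measured and 59 tested, with a median log2 fold change of −0.14 (−0.0001 without midkine 5). With 6 libraries limma called 0, with 3 of the 59 higher (10.4% of all genes) and 9 lower (9.3%) at an unadjusted p under 0.05. Below all controls lay 14 (15.3% of all genes) and above them 4 (15.5%). Mx2, a GTPase related to Mx1, had 84.1, 61.4 and 66.1 normalized counts in control and 28, 24.3 and 35.4 in midkine libraries (−1.25 ± 0.237, limma adjusted p = 0.0788). The groups were far apart in all libraries, and Mx2 fell in DESeq2 (adjusted p = 0.00617) and without midkine 5 in limma (−1.39, adjusted p = 0.000349). Ifi203 had 1919 to 2208 in control and 1333, 1413 and 718 with midkine (−0.87 ± 0.256, adjusted p = 0.142), and Ifi205 79.9 to 175 and 52.6 to 71.8 (−0.94 ± 0.293, adjusted p = 0.155). Without midkine 5, limma called 10 of the 59 lower (8.52% of all genes) and 5 higher (9.92%), Ifi203 (−0.56) and Ifi205 (−0.84) among the lower.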

How the data were processed

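RNA was measured with the QuantSeq 3′ kit (FWD), which reads near the 3′ end of transcripts, so that values do not scale with length. Per the submitters' processing notes, the build was GRCm38 (mm10) and the tools were HTSeq, DESeq2, SAMtools 0.1.19, Bowtie 1.0.0, TopHat2 2.0.10 and FastQC 0.11.0. The strand setting of the counting and the fate of reads matching more than 1 gene were not given in the sources used here. The deposited signal is a normalized count per gene from the authors. In each library 100% of values were whole multiples of 1 step (tolerance 0.01 reads), as for counts divided by a size factor (0.947 to 1.10 here), which gave whole reads for edgeR 4.0.16 and DESeq2 1.42.0.

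The main test was limma 3.58.1 (R 4.3.3, eBayes with trend, two-sided, Benjamini-Hochberg over 13543 genes with a mean of at least 5) on log2(normalized count + 1), a scale that understates changes of low genes. DESeq2 gave an adjusted p to 12148 genes. A floor of 3 reads is 2.72 to 3.17 normalized counts, and intervals cover counting error only. Limma, edgeR and DESeq2 were also run on simulated counts in which no library stood apart as midkine 5 did. That run therefore does not show how they handle such a library. The members and lists were chosen with earlier results of these data known. Named in full were members whose groups do not overlap and the most abundant of each role. In each pathway list up to 3 genes with the smallest p were named. A further gene under this rule is not reported here. Others named there were chosen after their values were seen. Gene positions are from GENCODE M21 on GRCm38. Motifs were searched by exact letters. Other settings tried are given in the closing section. Figures were drawn with matplotlib 3.10.9.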

Additional observations from a re-analysis of the deposited data

How the results depend on the processing

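No gene passed with limma and 6 libraries. Over all genes tested, edgeR called 10, DESeq2 678, a pseudocount of 5 10, no filter on low values 9, TMM scaling 7, quantile normalization 16 and array weights 5076, the last being weights that let libraries with more scatter count less. Leaving out each library in turn gave 0 to 2497, the latter without midkine 5, and edgeR without midkine 5 gave 2508. Of the 39 members, DESeq2 called 2, both lower (1.86% of genes with an adjusted p were called lower). Array weights called 12, with 4 higher (19.1% of all genes) and 8 lower (18.4%), shares of the members of 10.3% and 20.5%. Without midkine 5, edgeR called 7 (18.5% of all genes). The fits that each left out 1 library called 0 to 7 members. The members' median was −0.32 with 6 libraries. It ran from −0.40 (without midkine 4) to −0.09 (without midkine 5) when 1 library was left out, and was −0.079 with edgeR without midkine 5 and −0.0020 with array weights. In the other alternatives it lay between −0.34 and −0.25. No paired analysis was possible because the groups share only 1 replicate number, 4.

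The direction was the same in all 17 alternatives for 23 members, and 16 members turned in at least 1. With array weights, log2 fold changes turned to 0.14 for Cmpk2, 0.044 for Ddx58, 0.037 for Herc6, −0.38 for Ifi35, 0.024 for Ifih1, 0.18 for Irgm1, −0.063 for Isg15, 0.39 for Oasl2, 0.016 for Rnf213, 0.033 for Samhd1, 0.15 for Sp100, 0.039 for Trim30a and 0.21 for Xaf1. With edgeR without midkine 5 they turned to 0.034 for Ddx58, −0.21 for Ifi35, −0.016 for Irf7, 0.026 for Irgm1, −0.10 for Isg15, 0.18 for Oasl2, 0.0031 for Samhd1, 0.084 for Sp100 and 0.16 for Xaf1. Gbp7 was −0.026 with edgeR, −0.020 with DESeq2 and −0.042 with quantile normalization, where Isg15 was −0.0067. Leaving out each library in turn, the range crossed 0 for Cmpk2 (−0.27 to 0.12), Ddx58 (−0.67 to 0.031), Dtx3l (−0.15 to 0.10), Gbp7 (−0.16 to 0.15), Ifi35 (−0.22 to 0.64), Irf7 (−0.017 to 0.38), Isg15 (−0.092 to 0.22), Oasl2 (−0.39 to 0.12), Sp100 (−0.32 to 0.077) and Xaf1 (−0.65 to 0.15). The cause of these turns was not tested. Depth limits Oas1a most, with 15 to 41 reads per library.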

Other observations

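Within the wider list of interferon-induced genes, neighbouring or related genes differed from each other in these libraries; they were chosen after their values were seen. Mndal, like Ifi203 a member of the Ifi200 family of DNA-binding proteins, had 1901, 2120 and 1643 normalized counts in control and 1351, 1311 and 615 in midkine libraries (log2 fold change −0.87 ± 0.297, limma adjusted p = 0.183), and fell without midkine 5 (−0.50, adjusted p = 0.00411). Of the same family, Ifi204 (454 to 526 and 322 to 684) and Ifi207 (426 to 476 and 292 to 629) overlapped.

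The ADP-ribosyltransferases related to Parp14 also varied. Parp11 had 206, 194 and 197 normalized counts in control and 129, 138 and 192 in midkine libraries, and fell without midkine 5 (−0.58, limma adjusted p = 0.00578). Parp12 had 109, 79.8 and 96.7 in control and 119.9, 190.0 and 119 with midkine, and rose without midkine 5 (0.67, limma adjusted p = 0.0207). Ube2l6, the conjugating enzyme for ISG15, had 95.4, 100.2 and 79.9 in control and 110.2, 197 and 388 with midkine, and rose in DESeq2 (adjusted p = 0.0297) and without midkine 5 in limma (0.68, adjusted p = 0.0255).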
